A study of Mus musculus with 10 samples.

Results

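A set of 7 genes of plasminogen activation and coagulation, out of 55486 genes in the count table, was followed across the 10 libraries of the series: the activators Plau and Plat, the receptor Plaur, the inhibitors Serpine2 and Serpinb2, tissue factor F3 and the factor XIII A chain F13a1. They were taken by symbol, and each symbol matched 1 row. Normal fibroblasts (NFs) of mammary glands from 8-week old mTmG mice, which carry a membrane Tomato reporter that Cre recombination turns into membrane GFP, were sorted into a CD26- and a CD26+ subset, grown in 2D, and embedded together in collagen and basement membrane extract (BME) gels. The first gel had NFs and no tumor cells. Line 13-MCB-17 was grown by itself in gel 2 and with both NF subsets in gel 4, and line 10-SJK-221 by itself in gel 3 and with both subsets in gel 5. Both tumor lines derive from mice that develop invasive lobular carcinoma (ILC) and carry WapCre and Cdh1F/F, so that a milk-protein promoter drives the loss of E-cadherin, together with a further conditional allele. After 7 days the Tomato+ cells (CD26- NFs), the GFP+ cells (CD26+ NFs) and the cells with neither color (tumor cells) were sorted apart, which gave 1 library of each NF subset without tumor cells, 2 of each with them, 2 of tumor cells alone and 2 of co-cultured tumor cells. The CD26+ NFs alone had been given an adenovirus carrying Cre, so virus exposure and subset cannot be told apart. Glands of several mice were pooled for a sort according to the study's methods, no label ties a gel to an animal, and each tumor line is a single line, so p-values measure the spread between these libraries.

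Plasminogen is a circulating proenzyme that urokinase (Plau) and tissue-type activator (Plat) cleave to plasmin, which breaks down fibrin and activates matrix-degrading enzymes. Urokinase is held at the cell surface by its receptor Plaur, and both activators are blocked by serpins, among them PAI-2 (Serpinb2) and protease nexin-1 (Serpine2). On the opposite side, tissue factor (F3) starts coagulation on the surface of fibroblasts and epithelial cells, and factor XIII (F13a1 is its catalytic chain) crosslinks fibrin and matrix proteins.

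The libraries held 14142334 to 18408940 counts, so that 3 counts, taken as the floor of detection, stood for 0.163 to 0.212 CPM, the unit of counts scaled to a common library total. All 8 fibroblast markers reached 1 CPM in every NF library, and all 9 epithelial markers did so in every tumor library. In NFs grown alone 7 of the 9 epithelial markers were at 0 and their sum was 0.435 to 0.842 CPM. In co-cultured NFs the sum was 107 to 280 CPM against 3653 to 4476 CPM in the tumor cells of those gels. The median of the 9 ratios to the tumor cells of the same gel was 1.96% and 3.09% in CD26- and CD26+ NFs of gel 4, and 2.26% and 4.82% in gel 5, and single markers ranged from 0.827% to 17.7%. The summed fibroblast markers were at 71433 and 76899 CPM in NFs alone and at 24347 to 42773 CPM in co-cultured NFs, and the part of this shift in the co-culture differences was not tested. Macrophage markers summed to 11.6 and 13.8 CPM without tumor cells and reached 31.3 to 65.5 CPM beside them, mainly from Cd68 and Csf1r, with Adgre1 at 0 and Ptprc at most 0.0621 CPM in all 6 NF libraries. Endothelial markers summed to 4.35 and 9.76 CPM alone and 8.06 to 24.4 CPM in co-culture. The part of these cell types in the NF results was not tested either. In the other direction, 6 of the 8 fibroblast markers (without Pdgfra and Vim) gave a median of 0.109% and 0.130% of the NF level in co-cultured tumor cells of gels 4 and 5. Single markers of these ranged from 0.0444% to 0.802%.

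Co-culture with tumor cells was the condition in which most of the genes moved in NFs. Of the 7 genes, 5 passed the test between the 4 co-cultured and the 2 control NF libraries: Serpinb2, Plaur, Plau and Serpine2 were higher, and F3 was lower. Among all 15013 genes tested, 25.9% were called higher and 22.9% lower. How many of all genes had no overlap between these 2 groups of libraries was not counted. The median log2 fold change was 1.12 over the 7 genes and 0.025 over all genes. Both control libraries came from gel 1, so a difference of that gel and the absence of tumor cells cannot be told apart, and in these bulk libraries more expressing cells and more RNA per cell cannot be told apart either.

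The upstream sequences of Serpinb2, Plaur and F3 are shown because these were the 3 genes with the largest fold changes in NFs that also had an entry in the RefSeq promoter table (GRCm38.p6), which held 5 of the 7 genes. Each run covers the 250 bases before the transcription start, 5′ to 3′ on the gene's own strand (all plus), and capitals mark matches to TATAAA, to TGACTCA (the AP-1 motif) or to GGGCGG (the Sp1 motif), each searched on both strands. Neighbouring or overlapping Sp1 matches form 1 run of capitals.
Serpinb2 (chr1:107511173-107511422): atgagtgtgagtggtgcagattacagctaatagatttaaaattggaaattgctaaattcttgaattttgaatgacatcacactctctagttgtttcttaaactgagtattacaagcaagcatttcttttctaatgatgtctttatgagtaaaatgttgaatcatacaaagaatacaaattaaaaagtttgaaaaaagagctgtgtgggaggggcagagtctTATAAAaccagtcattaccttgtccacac
Plaur (chr7:24462233-24462482): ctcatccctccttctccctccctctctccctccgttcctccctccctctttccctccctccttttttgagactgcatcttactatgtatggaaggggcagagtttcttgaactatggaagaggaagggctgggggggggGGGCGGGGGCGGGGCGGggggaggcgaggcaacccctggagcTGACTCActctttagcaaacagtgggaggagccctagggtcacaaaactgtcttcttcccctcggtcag
F3 (chr3:121723287-121723536): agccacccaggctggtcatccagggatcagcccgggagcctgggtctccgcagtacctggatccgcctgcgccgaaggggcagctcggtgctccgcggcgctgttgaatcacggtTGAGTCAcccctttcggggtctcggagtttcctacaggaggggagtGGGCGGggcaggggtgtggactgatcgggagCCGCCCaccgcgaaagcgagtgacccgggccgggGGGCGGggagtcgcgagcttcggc
Serpinb2 held TATAAA 29 bases before the start used here and no exact match to the AP-1 or Sp1 letters in this window. Variants of these letters were not searched for any gene. The table lists a further Serpinb2 start downstream, 116 bases after the same TATAAA. Plaur and F3 each held 1 AP-1 match, beginning 69 and 135 bases before the start, and 3 Sp1 matches. Of 32851 mouse windows of the same length, 12.4% held TATAAA, 4.46% the AP-1 letters and 32.7% the Sp1 letters. Whether these motifs have a part in the changes of co-cultured NFs was not tested.

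Serpinb2, the mainly intracellular inhibitor of urokinase, had the largest increase. Grown alone, CD26- NFs had 12.9 CPM and CD26+ NFs 19.1 CPM. In gels 4 and 5 it reached 138 and 127 CPM in the CD26- subset, and 313 and 311 CPM in the CD26+ subset. Every co-cultured library lay above both controls, and the 2 gels of a subset nearly coincided. The log2 fold change was 3.74 ± 0.19 (SE; edgeR quasi-likelihood test, adjusted p = 8.36e-07), which placed Serpinb2 at rank 615 from the top of 15013 genes. The median tumor share of the same gel would bring 0.150 to 0.903 CPM. On the plus strand of chromosome 1 (107511423 to 107535478) Serpinb2 shares 12.4% of its exon length with Serpinb10 on the same strand, so reads there could be assigned to either gene; Serpinb10 had at most 7 counts in any library.

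Plaur, the cell-surface receptor that concentrates urokinase, rose as well. Without tumor cells the CD26- library had 25.4 CPM and the CD26+ library 27.02 CPM. Beside them gel 4 gave 90.4 CPM (CD26-) and 81.2 CPM (CD26+), and gel 5 gave 85.4 CPM (CD26-) and 107 CPM (CD26+). The groups did not overlap, and the subsets were intermixed among the 4 co-cultured libraries. In the fit this was a log2 difference of 1.84 ± 0.16 (adjusted p = 1.66e-05).

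Plau, the urokinase gene, rose in both subsets. The controls had 201 CPM (CD26-) and 307 CPM (CD26+). Co-culture gave 384 CPM (CD26-) and 688 CPM (CD26+) in gel 4, and 486 CPM (CD26-) and 1011 CPM (CD26+) in gel 5. All 4 co-cultured libraries exceeded both controls, with a log2 fold change of 1.34 ± 0.21 (adjusted p = 0.000687). Plau is abundant in the tumor cells, and the median tumor share would bring 25.7 to 55.3 CPM, which is 5.33% to 6.70% of the NF level. With that share taken out of the counts, an alternative added after the data were seen, the log2 fold change was 1.32 (adjusted p = 0.00131). The highest of the 9 marker ratios would bring 105 to 203 CPM, or 20.1% to 33.4% of the NF level, and with it taken out the log2 fold change was 1.17 ± 0.30 (adjusted p = 0.0182).

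Plat, the tissue-type activator, did not pass this test. CD26- NFs had 331 CPM alone, 369 CPM in gel 4 and 565 CPM in gel 5, and CD26+ NFs had 251, 284 and 406 CPM in the same order. The groups overlapped, since the CD26+ library of gel 4 lay below the CD26- control. Its log2 fold change was 0.53 ± 0.22 (adjusted p = 0.0703), and it passed with DESeq2 (adjusted p = 0.0489) or without the CD26- library of gel 4 (0.66, adjusted p = 0.0350), the CD26+ library of gel 4 (0.63, adjusted p = 0.0361) or both (0.81, adjusted p = 0.00354).

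Serpine2, a serpin bound to the matrix that blocks thrombin and both activators, showed unlike values in the 2 subsets. The CD26- subset had 285 CPM alone and 734 and 1070 CPM beside tumor cells, in gels 4 and 5, whereas the CD26+ subset had 1005 CPM alone and then 1001 and 1373 CPM. The CD26+ control thus overlapped the co-cultured libraries. Over both subsets the log2 fold change was 0.94 ± 0.33 (adjusted p = 0.0400). It fell to 0.28 (adjusted p = 0.483) without the CD26- library of gel 1, and the call was also lost without the CD26- library of gel 4 (adjusted p = 0.0650), the CD26- library of gel 5 (0.0535), the CD26+ library of gel 5 (0.0906) or both of gel 5 (0.145).

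F3, which encodes the membrane receptor that initiates coagulation, fell in NFs. Alone, the CD26- library had 580 CPM and the CD26+ library 431 CPM. Beside tumor cells gel 4 gave 78.9 CPM (CD26-) and 79.2 CPM (CD26+), and gel 5 gave 53.0 CPM (CD26-) and 77.4 CPM (CD26+). No co-cultured library came near a control, and the log2 fold change was -2.77 ± 0.18 (adjusted p = 3.05e-06), rank 374 from the bottom of 15013 genes.

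F13a1 was near the floor in NFs. It had 6 and 8 counts in the controls and 10, 16, 21 and 15 counts in co-culture, or 0.373 to 1.21 CPM over all 6 libraries. The log2 fold change of 1.12 ± 0.56 did not pass (adjusted p = 0.126). The median tumor share would by itself bring 44.0% to 107% of the levels seen in co-cultured NFs, so no level of the NFs' own can be read from them.

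**Figure D1:**
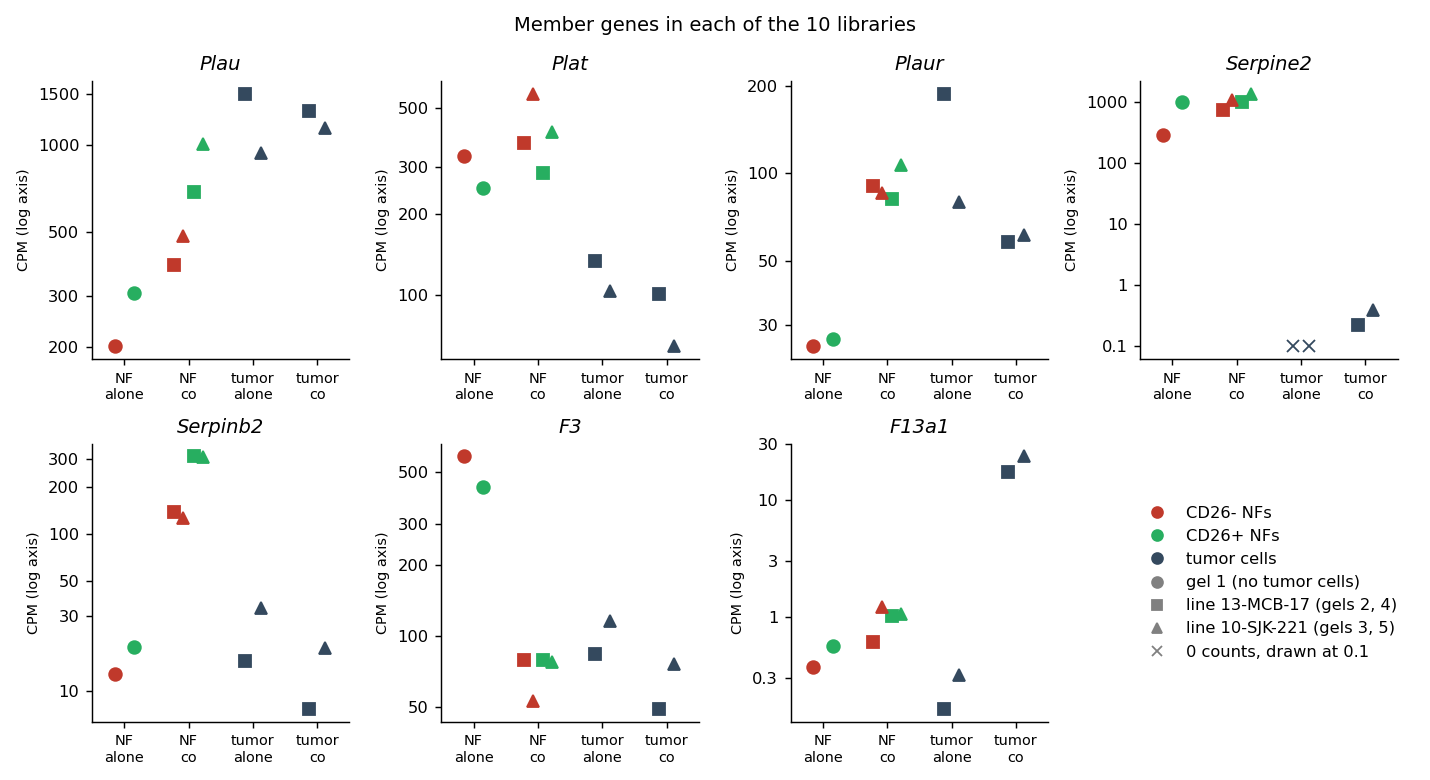
CPM on log axes (a separate range for each gene) for the 7 genes in each of the 10 libraries, with color for the cell type or subset and symbol for the gel or tumor line; crosses are libraries with 0 counts. Serpinb2, Plaur and Plau lie higher and F3 lower in all 4 co-cultured NF libraries than in the 2 NF libraries grown alone, while F13a1 exceeds 10 CPM only in the 2 co-cultured tumor libraries. Of all genes tested in NFs, 25.9% were called higher and 22.9% lower in co-culture. How many genes separate without overlap was not counted.

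The 2 subsets, which shared gels 1, 4 and 5, were next compared, first in a fit without a gel term. A fit with the gel as a block, given below, called 3 of the 7 genes and 8.87% of all genes. Without the gel term Serpinb2 was the only one of the 7 genes that passed between the 3 CD26+ and the 3 CD26- libraries. It had a log2 fold change of 0.88 ± 0.15 (adjusted p = 0.0110), against 3.93% of 15013 genes called higher and 3.6% called lower. Its ratio of CD26+ to CD26- was 1.49 (95% exact conditional interval 1.24 to 1.79) in gel 1, 2.27 (2.16 to 2.38) in gel 4 and 2.45 (2.32 to 2.58) in gel 5. These intervals cover counting error only. The call was lost without the CD26- library of gel 4 (adjusted p = 0.0591), the CD26- library of gel 5 (0.0785), the CD26+ library of gel 5 (0.0545) or both of gel 5 (0.215).

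The activators ran in opposite directions between subsets. Plau was 1.53, 1.79 and 2.08 times as high in CD26+ as in CD26- NFs of gels 1, 4 and 5, and Plat was 0.759, 0.769 and 0.718 times as high. Neither passed the test without the gel (Plau log2 0.69 ± 0.19, adjusted p = 0.0549; Plat -0.58 ± 0.20, adjusted p = 0.112). With the gel as a block, since both subsets were sorted out of one gel, both passed: Plau at 0.68 (adjusted p = 0.0193) and Plat at -0.57 (adjusted p = 0.0251). The block called 8.87% of all genes in either direction, and 3 of the 7. Plau also passed without the CD26+ library of gel 1 (adjusted p = 0.0459), the CD26+ library of gel 4 (0.0329) or both of gel 4 (0.0420), and with DESeq2 (0.00790), and Plat without both of gel 4 (0.0497).

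Plaur, F3 and F13a1 did not pass the subset test. The F3 ratio was 0.744 in gel 1, 1.00 in gel 4 and 1.46 in gel 5, and the Plaur ratio 1.06, 0.898 and 1.25. The log2 fold change was -0.13 ± 0.18 for F3 (adjusted p = 0.691), -0.06 ± 0.14 for Plaur (adjusted p = 0.826) and 0.13 ± 0.49 for F13a1 (adjusted p = 0.899). Over the 7 genes the median log2 fold change was 0.13, and over all genes 0.0040.

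Serpine2 had the largest gap between subsets in NFs alone and a smaller one in co-culture. Its CD26+ to CD26- ratio was 3.53 (3.41 to 3.65) in gel 1, 1.36 (1.33 to 1.40) in gel 4 and 1.28 (1.26 to 1.31) in gel 5. The subset difference over the 3 gels did not pass (log2 0.70 ± 0.30, adjusted p = 0.187). The interaction of subset and co-culture, which tests whether the 2 subsets respond unequally, was -1.46 ± 0.41 (adjusted p = 0.209) for Serpine2, and none of the 7 genes was called against 0.376% of 16231 genes (61 genes); DESeq2 called 1 of the 7. Without adjustment, the edgeR p was 0.00318 for Serpine2 and above 0.05 for the other 6 genes. With the gel as a block the Serpine2 interaction was -1.44 (adjusted p = 0.000155), where 2.43% of genes were called, and DESeq2 gave -1.48 (adjusted p = 0.0367). Each side of this interaction has 1 control library.

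**Figure D2:**
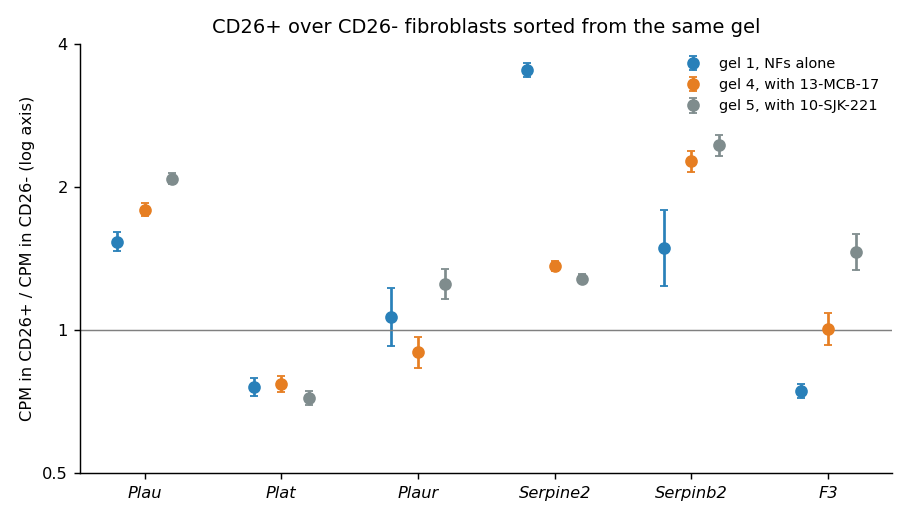
Ratio of CPM in CD26+ to CPM in CD26- NFs sorted from the same gel (log axis), with 95% exact conditional intervals for counting error; F13a1 is left out because of its low counts. Plau and Serpinb2 lie above 1 and Plat below 1 in all 3 gels, and the Serpine2 ratio is 3.53 in gel 1 against 1.36 and 1.28 in gels 4 and 5.

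In tumor cells co-culture with NFs went with a different set of changes. Of the 6 genes that could be tested, 1 was higher (F13a1) and 4 were lower (Plaur, Serpinb2, F3 and Plat), where 10.8% and 11.5% of 13197 genes were called higher and lower. Their median log2 fold change was -0.65, and that of all genes was 0.00998. The fit carried the line as a term and compared 2 with 2 libraries, so no library could be left out; without the line term edgeR called 0 genes of the table (2207 at an unadjusted p under 0.05, 3 of the 6 genes among them), and DESeq2 with the line called 1550 and 4 of the 7.

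F13a1 went from near absence to a clear level in both lines. Line 13-MCB-17 had 3 counts alone (0.163 CPM) and 306 counts in co-culture (17.3 CPM), a ratio of 106 (95% exact conditional interval 36.0 to 518). Line 10-SJK-221 had 5 counts alone (0.318 CPM) and 413 in co-culture (23.6 CPM), a ratio of 74.1 (31.5 to 229). Together these gave a log2 fold change of 6.36 ± 0.29 (adjusted p = 1.56e-05), rank 13 from the top of 13197 genes. Without the line it was 6.36 with an adjusted p of 0.0775. F13a1 is best known from macrophages and megakaryocytes. Of the 7 macrophage markers 2 reached 1 CPM in both co-cultured tumor libraries (Csf1r and Cd68), Fcgr1 was at 0, Ptprc, Adgre1 and Lyz2 had at most 0.114 CPM, Cx3cr1 had 0.566 and 0.627 CPM, and the summed level was 48.5 to 92.7 CPM against 101 to 301 CPM in tumor cells alone. Of the 4 megakaryocyte markers Itga2b (18.7 and 22.2 CPM) and Ppbp (1.92 and 8.96 CPM) reached 1 CPM in both co-cultured tumor libraries, as they did in both lines alone (14.5 and 17.8 CPM, 13.1 and 30.4 CPM), whereas Pf4 was at 0 and Gp9 at most 0.171 CPM. The sum was 20.6 to 31.4 CPM against 27.6 to 48.4 CPM alone. F13a1 in NFs of the same gels was 0.606 to 1.21 CPM, below the tumor level in every library. The part of macrophages, megakaryocytes or NFs in the F13a1 rise was not tested. F13a1 lies on the minus strand of chromosome 13 (36867178 to 37050244) and shares 1.1% of its exon length with Gm30489 on the plus strand, which had at most 2 counts in any library.

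Plaur fell in tumor cells by unequal amounts. It dropped from 187 to 58.0 CPM in 13-MCB-17 and from 79.8 to 61.2 CPM in 10-SJK-221, so that the co-cultured lines were closer to each other than the lines alone. Over both lines the log2 fold change was -1.07 ± 0.26 (adjusted p = 0.0197), and DESeq2 gave an adjusted p of 0.369.

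Serpinb2, F3 and Plat fell in both lines. Serpinb2 went from 15.5 to 7.64 CPM and from 33.7 to 18.7 CPM (log2 -0.95 ± 0.15, adjusted p = 0.00341). F3 went from 83.9 to 48.8 CPM and from 116 to 75.8 CPM (log2 -0.72 ± 0.10, adjusted p = 0.00198). Plat went from 133 to 100.3 CPM and from 103 to 63.9 CPM (log2 -0.57 ± 0.11, adjusted p = 0.00629). In each of the 3 genes the line that was higher alone was also higher in co-culture.

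Plau, the most abundant of the 7 genes per exon length in tumor cells, gave no common direction. It was 1505 CPM alone and 1310 CPM in co-culture in 13-MCB-17, and 937 and 1146 CPM in 10-SJK-221. The log2 fold change was 0.02 ± 0.16 (adjusted p = 0.945). Serpine2 had 0 counts in both lines alone and 4 and 7 counts in co-culture (0.226 and 0.399 CPM), too few to be tested. The median fibroblast share would bring 0.941 and 1.59 CPM of Serpine2, more than was seen.

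**Figure D3:**
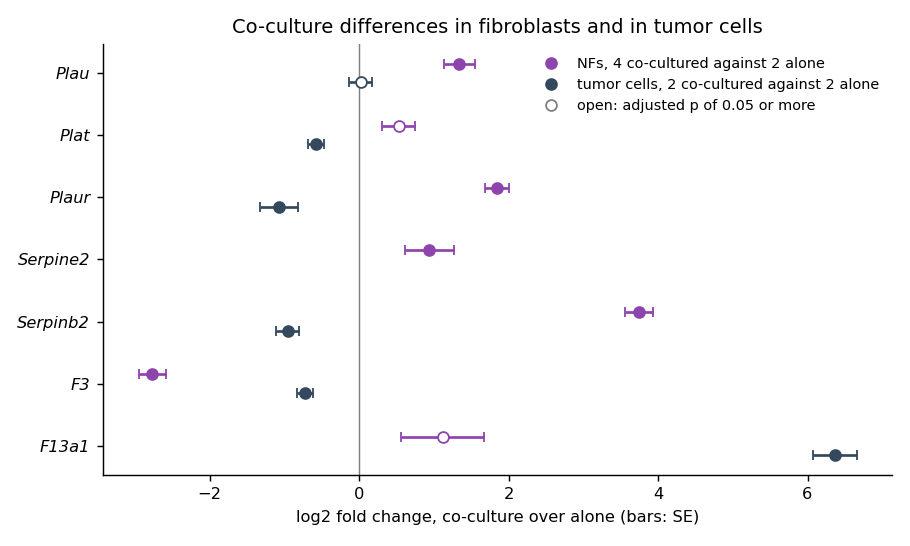
log2 fold changes of co-culture over culture alone from the edgeR fits in NFs and in tumor cells, with SE bars; open symbols did not pass an adjusted p of 0.05. Serpinb2 and Plaur lie on opposite sides of 0 in the 2 cell types, F3 lies below 0 in both, and F13a1 in tumor cells lies farthest from 0 at 6.36; Serpine2 has no tumor value.

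The response of the 2 cell types was then compared by an interaction term, NFs against tumor cells. Serpinb2 (log2 4.73 ± 0.75, adjusted p = 0.00317) and Plaur (3.04 ± 0.46, adjusted p = 0.00265) had a positive term, and F3 (-2.09 ± 0.35, adjusted p = 0.00399) and F13a1 (-5.26 ± 0.64, adjusted p = 0.000968) a negative one. For F3 the fall was larger in NFs, and for F13a1 the rise in tumor cells (6.36) exceeded the fitted change in NFs (1.12). Over 15878 genes 10.4% were called in the first direction and 7.65% in the second, and the medians were 1.08 over the 7 genes and 0.0125 over all. All 4 calls held in each of 15 alternatives. Plau (1.39, adjusted p = 0.102) and Plat (1.08, adjusted p = 0.172) did not pass. Plau passed with DESeq2 (adjusted p = 0.0400) and without a filter beyond 1 count (0.0334). Nothing is read from this term for Serpine2, which had 0 counts in both tumor lines alone and at most 7 in co-culture. NFs and tumor cells of one gel share that gel, and the comparisons in NFs, in tumor cells and between them share their control libraries.

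Between the lines, 3 of the 6 tested genes differed, with 5.93% of 13197 genes called higher in 10-SJK-221 and 8.54% lower. Serpinb2 was higher in 10-SJK-221 than in 13-MCB-17 (log2 1.12 ± 0.15, adjusted p = 0.00241), by a ratio of 2.17 alone and 2.45 in co-culture. F3 was higher too (0.47 ± 0.10, adjusted p = 0.0185; by DESeq2 0.119), and Plat was lower (-0.59 ± 0.11, adjusted p = 0.00817). Plau gave -0.51 (adjusted p = 0.0628), Plaur -0.67 (0.126) and F13a1 0.42 (0.274). Plau passed with DESeq2 (adjusted p = 0.0316) and without a filter beyond 1 count (0.000411), and Plaur passed without that filter (5.57e-07). Their median was -0.05, and that of all genes 0.0039. Each line is 1 line in 1 gel per condition.

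NFs and tumor cells differed most in Serpine2. Grown alone, NFs averaged 645 ± 509 CPM (SD, n = 2) and both tumor lines had 0 counts, so Serpine2 was at least 3644-fold higher in NFs against the floor of 3 counts per library. In the shared gels it averaged 1044 ± 263 CPM (SD, n = 4) in NFs and 0.313 ± 0.122 CPM (SD, n = 2) in tumor cells, a ratio of 3339. The libraries of the 2 cell types were far apart, both alone and in gels 4 and 5, and Serpine2 passed the test in both settings and in every alternative run.

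Of the other genes, F3 and Plat were higher and Plaur and Plau lower in NFs than in tumor cells when each was grown alone, where 28.9% of 15878 genes were called higher and 25% lower in NFs. F3 differed by log2 2.51 ± 0.28 (adjusted p = 5.45e-05) and Plat by 1.46 ± 0.39 (adjusted p = 0.00992). Plaur differed by -2.22 ± 0.35 (adjusted p = 0.000530) and Plau by -2.14 ± 0.42 (adjusted p = 0.00183). Serpinb2 (-0.47, adjusted p = 0.477) and F13a1 (1.09, adjusted p = 0.118) did not pass. The Plat call was lost without the CD26- library of gel 1 (adjusted p = 0.0618) or the tumor library of gel 3 (0.0716). The median was 1.09 over the 7 genes and 0.058 over all genes.

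Inside shared gels the contrast looked different. Serpinb2 (log2 4.26 ± 0.57, adjusted p = 0.000193) and Plat (2.53 ± 0.37, adjusted p = 0.000369) were higher in NFs, F13a1 was lower (-4.16 ± 0.32, adjusted p = 5.15e-06), and Plaur was now higher (0.82 ± 0.30, adjusted p = 0.0434), where 27.6% of genes were called higher and 23.3% lower. Plau (-0.75, adjusted p = 0.0895) and F3 (0.42, adjusted p = 0.166) did not pass. The Plaur call was lost without any one of 7 of the 10 libraries in the fit: both NF libraries of gel 1, the CD26- and tumor libraries of gel 4 and all 3 of gel 5, with adjusted p-values of 0.0576 to 0.161. Plau passed without the CD26+ library of gel 5 (-1.02, adjusted p = 0.0169) and without a filter beyond 1 count (-0.74, adjusted p = 0.0361). The median was 0.82 over the 7 genes and 0.049 over all.

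Placed in order over the 6 groups, the genes fell into a few patterns. Plau was highest in tumor cells and lowest in NFs alone, with co-cultured CD26+ NFs of gel 5 (1011 CPM) inside the tumor range of 937 to 1505 CPM. Plat ran the other way, since all 6 NF libraries (251 to 565 CPM) lay above all 4 tumor libraries (63.9 to 133 CPM). For Plaur, tumor cells alone spanned the co-cultured NFs, co-cultured tumor cells came below them, and NFs alone were lowest. For F3, NFs alone stood above all other libraries, and the remaining groups overlapped between 48.8 and 116 CPM. For Serpinb2, co-cultured CD26+ NFs came first and co-cultured CD26- NFs second, and the other groups lay between 7.64 and 33.7 CPM.

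On a per-length scale (CPM per kb of exon), which allows levels of different genes to be compared, urokinase exceeded the tissue-type activator in all 10 libraries. The ratio of Plau to Plat was 1.60 to 6.57 in NFs and 24.1 to 47.3 in tumor cells. Within each gel it was higher in CD26+ than in CD26- NFs, at 3.22 against 1.60 in gel 1, 6.38 against 2.74 in gel 4 and 6.57 against 2.26 in gel 5. Of the inhibitors, Serpine2 ran from 34.4 to 166 CPM per kb in NFs and reached at most 0.0482 CPM per kb in tumor cells. Serpinb2 was at 5.47 and 8.13 CPM per kb in NFs alone, 54.2 to 133 CPM per kb in co-cultured NFs and 3.25 to 14.4 CPM per kb in tumor cells. In co-cultured CD26- NFs Serpine2 exceeded Serpinb2 in both gels, and in CD26+ NFs Serpinb2 was above Serpine2 in gel 4 and below it in gel 5. These are RNA levels and ratios, described without a test.

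**Figure D4:**
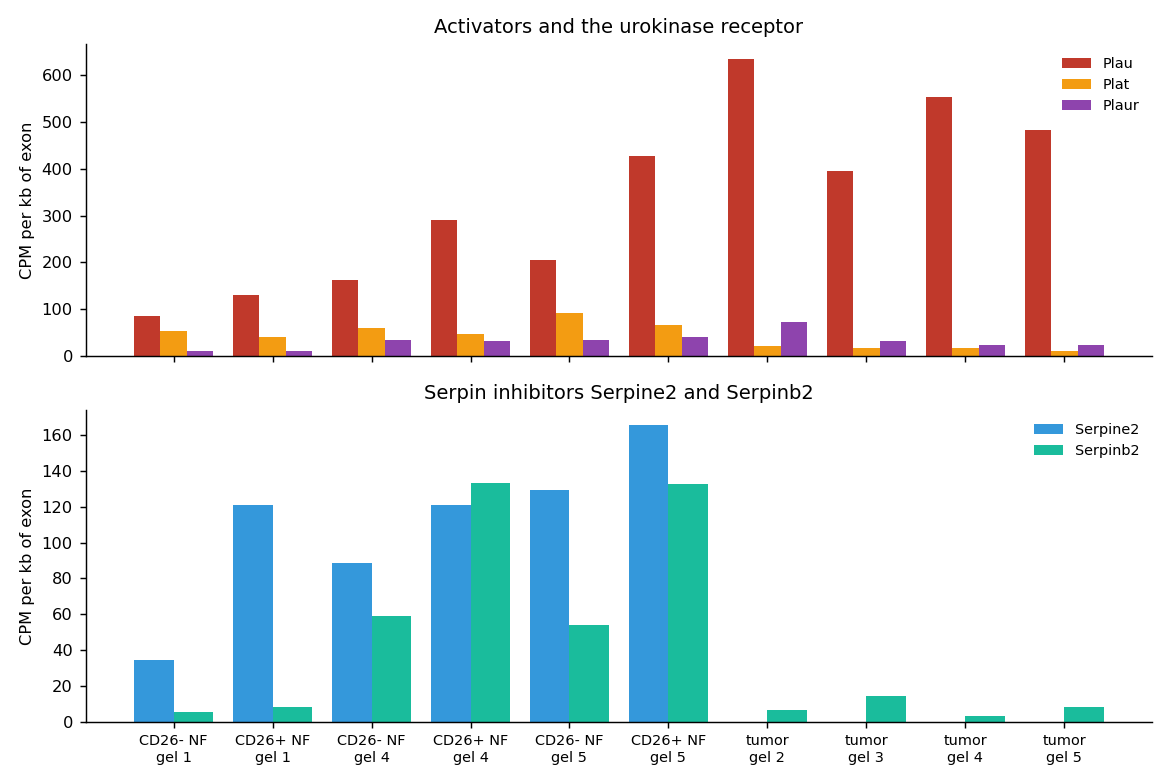
CPM per kb of exon in each library for Plau, Plat and Plaur (upper bars) and for the inhibitors Serpine2 and Serpinb2 (lower bars), both from 0. Plau is the tallest activator bar in every library, and the Serpine2 bars, 34.4 CPM per kb or more in NFs, are too low to see in tumor cells.

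Other genes of plasminogen activation and coagulation were taken from a list of 59 that holds the 7 genes; 38 of the other 52 could be tested in NFs. With co-culture, 17 of the 38 were higher, 9 lower and 12 did not pass, with a median log2 fold change of 0.43, against 25.9% of all genes higher and 22.9% lower. The 17 include Serpinb5, Spint1, Spint2 and St14, genes of epithelial cells named after their values were seen, for which the median tumor share would bring 40.6% to 198% of the level in co-cultured NFs. With that share taken out 15 of 37 were higher and 9 lower, Serpinb5 and St14 no longer among them. Of all 14850 genes tested in that fit, 3701 were called higher and 3355 lower. With the highest marker share taken out 12 of 33 were higher and 9 lower, with none of the 4, where 3012 of 14597 genes were called higher and 3003 lower. The named genes higher in co-culture were low or absent in NFs alone. The thrombin receptor gene F2rl2 had 0 counts alone and 2.51 to 5.81 CPM in co-culture, at least 20.4-fold higher, and coagulation factor XII (F12) had 0 alone and 1.27 to 3.41 CPM, at least 10.7-fold higher. F2rl1, the trypsin-like protease receptor, went from at most 0.248 CPM to 3.33 to 4.72 CPM, beside 29.7 and 46.6 CPM in the tumor cells of those gels. The median tumor share would bring 14.2% to 38.6% of that F2rl1 level and the highest marker share 57.7% to 159.5%.

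The lowest were Kng1, Vtn and Gas6. Kng1, the kininogen gene, had 5.40 and 15.8 CPM alone and at most 0.0707 CPM in co-culture. Vitronectin (Vtn), an adhesive matrix and plasma protein, had 16.6 and 15.2 CPM alone and at most 0.115 CPM in co-culture. Gas6, a vitamin K-dependent ligand, went from 2257 and 2132 CPM to 65.8 to 110 CPM (log2 -4.67 ± 0.18, adjusted p = 2e-07). Tfpi, the inhibitor of the tissue factor pathway, stood at 87.9 and 116 CPM alone and 72.6 to 123 CPM in co-culture (-0.05, adjusted p = 0.802), and the endocytic receptor Lrp1 at 0.23 (adjusted p = 0.296). Plg itself, the plasminogen gene, was at 0 counts in all 10 libraries, and 3 counts would have been at most 0.212 CPM.

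**Figure D5:**
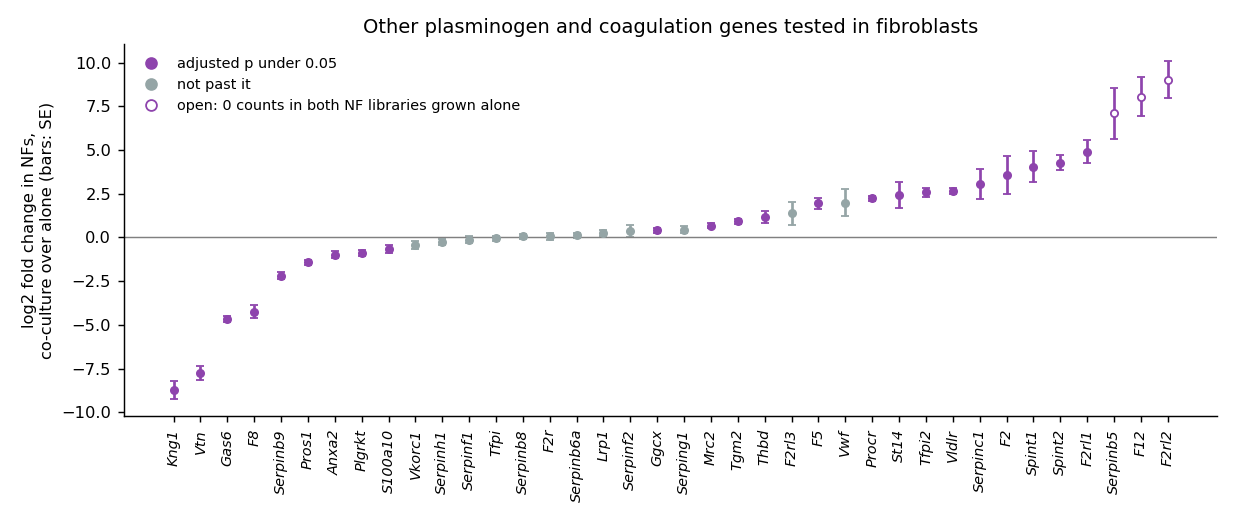
log2 fold changes with SE in NFs (co-culture over alone) for the 38 other list genes tested, in rank order; purple points passed an adjusted p of 0.05, and open symbols mark genes with 0 counts in both control libraries, whose fitted value is not a bound. Kng1 and Vtn lie lowest, and 26 of the 38 genes passed.

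Between subsets, 8 of the 38 list genes passed, 4 higher in CD26+ NFs and 4 lower, with a median of -0.07, where 3.93% and 3.6% of all genes were called. F5, coagulation factor V, was higher in CD26+ NFs in every gel (4.77 against 0.683 CPM, 18.1 against 4.00 and 11.95 against 3.51, log2 2.01 ± 0.27, adjusted p = 0.00462). Spint2, an epithelial Kunitz-type protease inhibitor, was higher as well (1.36, adjusted p = 0.0362), while its level in tumor cells of gels 4 and 5 was 279 and 253 CPM and the tumor share would bring 66.9% to 97.1% of its NF level. Serpinb8 was higher (1.09, adjusted p = 0.00633). F2r, a thrombin receptor, was lower in CD26+ NFs (-0.81, adjusted p = 0.0298), as were Tfpi (-0.69, adjusted p = 0.0164) and the collagen receptor Mrc2 (-0.67, adjusted p = 0.0210). Lrp1 gave -0.36 (adjusted p = 0.201). The Tfpi call was lost without the CD26- (adjusted p = 0.0957) or the CD26+ library of gel 5 (0.0675). The F2r call held only when the CD26- library of gel 4 was the one left out, and the Mrc2 call only for the CD26+ library of gel 4; without any other single library the adjusted p-values were 0.0569 to 0.158 and 0.0522 to 0.113. With the highest marker share of tumor RNA taken out, 2 of 33 list genes passed, F5 and Serpinb8, both higher. Of all 14597 genes tested in that fit, 218 were called, 149 higher and 69 lower. In edgeR 0 of the 38 genes passed the interaction with co-culture (8 at an unadjusted p under 0.05); DESeq2 called 1, Thbd (1.53, adjusted p = 0.0414). With the gel as a block edgeR called 2, Thbd (1.57, adjusted p = 7.48e-05) and St14 (adjusted p = 0.000174; no fold is given, since CD26- NFs alone had 0 counts), both named after their values were seen; for St14 the median tumor share would bring 63.6% to 102% of the co-cultured level.

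In tumor cells 13 of 28 list genes passed with co-culture, 7 higher and 6 lower, with a median of -0.06, where 10.8% and 11.5% of all genes were called. Serpinf1 and Serping1, which are abundant in NFs, had the highest fold changes of the named genes (3.53 and 2.09), from at most 1.78 CPM to between 3.65 and 34.7 CPM. The median fibroblast share would bring 5.00% and 37.3% of the Serpinf1 level in gels 4 and 5, and 31.5% and 86.3% of that of Serping1. The highest of the 6 marker ratios, 0.802% in gel 4 and 0.241% in gel 5, would bring more of both. The part of fibroblast RNA in these rises was not tested. Procr, the receptor of protein C, fell (-1.49, adjusted p = 0.000282), as did Serpinb6a (-0.93, adjusted p = 0.00121) and Serpinb8 (-0.83, adjusted p = 0.00625). Tfpi was called higher (1.08, adjusted p = 0.0493), and Lrp1 gave -0.38 (adjusted p = 0.116).

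Between lines, 6 of the 28 genes passed (14.5% of all genes), 1 higher in 10-SJK-221 (S100a10, 0.51) and 5 lower, among them Thbd (-1.37), F2rl1 (-1.30) and F2r (-1.22). Between cell types grown alone, 29 of the 38 genes passed, 18 higher in NFs and 11 lower, with a median of 0.75, where 28.9% and 25% of all genes were called. Vldlr (at least 297-fold, with both tumor lines at 0), Pros1 and Gas6 were among those higher in NFs, and the epithelial genes Serpinb5, Spint2 and Spint1 among those lower. In shared gels, 26 of the 38 passed, 18 higher and 8 lower (27.6% and 23.3% of all genes). In the interaction of cell type and co-culture 10 of the 38 passed (18.1% of all genes), and Tfpi (-1.15, adjusted p = 0.169) and Lrp1 (0.59, adjusted p = 0.230) did not.

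For each of the 7 genes the 2 genes of most similar pattern were found by Pearson's r of log2(TMM-scaled CPM + 0.5) over the 10 libraries, among 14707 genes. For Serpine2 they were Rtl5 and St8sia2 (both 0.999), for Serpinb2 Ercc1 (0.987, 1 gene shown), for Plat Ufsp2 and Arl6ip5 (both 0.981), and for Plau Bloc1s2 (0.976) and Taz (0.975). For Plaur they were Gstp1 (0.968) and Eif4ebp1 (0.959), for F3 Tgfbr2 (0.982) and Steap3 (0.978), and for F13a1 Cdh15 (0.976) and Amtn (0.962). The points are libraries of 2 cell types and share gels, and values this high were picked as the maximum over all genes compared, so they are given as a description.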

How the data were processed

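RNA of cells sorted from 5 gels was sequenced from polyA-selected TruSeq stranded libraries (HiSeq and NovaSeq instruments are both named, without saying which libraries ran on which). The deposited values are raw read counts per gene, 1 column per library, which the authors made with HISAT2 2.2.1 on GRCm38 according to their processing notes; the counting program, its strand setting and the annotation release are not given in the sources used here. Of the gene IDs, 99.38% were in GENCODE M21, which gave exon lengths and overlaps; positions are as the files give them. The 7 genes, the pathway list and the marker lists were chosen with earlier results of these data known. One row without a gene name held 0 counts.

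Counts were tested over all genes with edgeR 4.0.16 (R 4.3.3, TMM scaling, expression filter, quasi-likelihood F test, Benjamini-Hochberg threshold of 0.05), whereas the study used DESeq2 with an absolute log2 fold change above 2, which were tried here as separate alternatives (DESeq2 1.42.0 without a fold limit, and the fold limit on the edgeR calls) and not jointly. The SE is the log2 fold change over the square root of F. NF comparisons used the 6 NF libraries (subset and co-culture as terms), tumor comparisons the 4 tumor libraries (line and co-culture), and comparisons of cell types all 10. Log2 scale values are fitted and CPM values are counts over library totals; intervals and floors cover counting error only. Named genes are the 7, Plg, Tfpi and Lrp1, and in each comparison at most 3 called list genes at either end with a mean of 1 CPM or more. Some genes that these rules cover, and an allele of the tumor model, are not reported here. The scripts were tested on simulated data with known fold changes. Libraries of a group differed by more than counting noise. The gel number marks a shared gel, so it pairs the CD26- and CD26+ libraries, whose deviations in a co-culture gel correlated at r = 0.222 across 14707 genes. Alternatives were other scaling, filters, DESeq2, leaving out libraries or gels, the gel as a block, the tumor fit without the line and, chosen after seeing the data, subtraction of the tumor RNA share (the median or the highest marker ratio) from co-cultured NFs.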

Additional observations from a re-analysis of the deposited data

Results flagged for a closer look

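The difference between NFs and tumor cells in their co-culture response passed the interaction test for 4 of the 7 genes, where edgeR called 10.4% of genes upward and 7.65% downward. Serpinb2 (4.73) and Plaur (3.04) were higher in co-cultured NFs and lower in co-cultured tumor cells. F3 (-2.09) was lower in both cell types, more so in NFs. F13a1 (-5.26) was called higher in tumor cells and had 6 to 21 counts in NFs, against a floor of 3. No group of the study held more than 2 libraries, too few to test a library against the others of its own group. Each library was instead left out in turn, except in the comparisons within tumor cells. In the subset by co-culture interaction the NF libraries grown alone were not left out either.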

How the results depend on the processing

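Most of the named values kept their direction and their side of the threshold: of 1393 alternative values for the named genes, 1252 did, 96 lost a call, 22 gained one and 23 changed sign. The cause of a change was not tested. With an absolute log2 fold change above 2, which by construction removes calls, the counts of genes called were 192 (subset in NFs), 2047 (co-culture in NFs), 418 (co-culture in tumor cells), 278 (line), 4472 and 3713 (cell type alone and in shared gels) and 1394 (cell type by co-culture), and of the 7 genes 0, 2, 1 and 0 were called in the first 4. DESeq2 called 98 genes in the subset by co-culture interaction, 1550 in tumor co-culture and 936 between lines, with 2 of the 7 genes in the subset comparison and 1 in the interaction. Without a filter beyond 1 count the interaction gave 18 calls and the line 2917 (5 of the 7 genes), and with 1 CPM in 2 libraries the interaction gave 38. Tumor co-culture without the line gave 0 calls, 0 of the 6 genes and -0.025 for Plau, which changed sign. F3 changed sign to 0.091 between subsets in co-cultured NFs only, Tfpi to 0.0145 and 0.17 with co-culture after subtraction of the median and the highest tumor share (the latter gave 218 calls in the subset comparison), and Lrp1 to -0.0064 in the interaction without a filter.

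With the gel as a replicate block the subset comparison called 3 of the 7 genes (Serpinb2, Plau and Plat), and the interaction called 395 genes and 1 of the 7 (Serpine2). Cell type in shared gels, the remaining comparison fitted with the block, kept its side of the threshold for the 7 genes; of the other list genes the interaction called 2 (Thbd and St14) in place of 0.

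Leaving out single libraries or gels gave 17 (without gel 5) to 1309 calls in the subset comparison, with 0 to 3 of the 7 genes. The interaction gave 0 (without the CD26+ library of gel 4) to 30 calls, and cell type by co-culture 1576 (without the tumor library of gel 2) to 2700. Among values that changed sign, in the subset comparison Plaur ran from -0.18 to 0.077, F3 from -0.35 to 0.091 and F13a1 from -0.13 to 0.58. In the subset by co-culture interaction Plat ran from -0.43 to 0.32, Plau from -0.057 to 0.57, Plaur from -0.30 to 0.17, F13a1 from -0.87 to 0.21 and Lrp1 from -0.17 to 0.15. Tfpi with co-culture in NFs ran from -0.17 to 0.069 and Serpinb2 between cell types alone from -0.92 to 0.12. None of these values passed the test. The comparisons in tumor cells had no degrees of freedom left without a library and were not run that way. The subset by co-culture interaction was not run without an NF library grown alone, since each subset had 1. Low counts limited what could be read for F13a1 in NFs (6 to 21 counts) and Serpine2 in tumor cells (0 to 7 counts).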
